A study of Homo sapiens with 24 samples.

Results

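The genes of the E2F transcription factors (*E2F1* to *E2F8*) and of the pocket proteins *RB1* and *RBL1* were followed in A549 cells over 11 h of glucocorticoid (GC) exposure. The rule for these 10 genes uses their names only, out of 33126 genes with at least 1 transcript row in the count table, and the counts of their 40 transcripts were summed per gene. These genes, and the gene lists and motifs below, were chosen with earlier results of these data known. Counts of calls among them, set beside the share of all features, are therefore descriptive. A549 is an established human line of lung adenocarcinoma cells. Dexamethasone (dex), a GC made by synthesis, binds and activates the glucocorticoid receptor (GR). The cultures received 100 nM dex, or ethanol (EtOH, 0.02% of the medium volume) as the vehicle, for 1, 3, 5, 7, 9 or 11 h. Each treatment and time point had 2 poly-A RNA-seq libraries, which made 24 libraries in 12 groups. The labels number them as biological replicates without saying whether they came from separate cultures, so p-values measure the spread between these libraries. The labels name no genetic change and no synchronization of the cultures. In whole cultures such as these, fewer cells in a phase of the cell cycle and less RNA per cell cannot be told apart.

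Total counts ran from 6708864 to 13748598 per library, with a median of 10112359.5 in EtOH and 9975978.5 in dex libraries. All 10 genes passed the filter on low counts, with *E2F2* the lowest at 32 to 232 counts per library. The dex libraries were checked against known responders: of 6 listed GC targets, 5 passed the filter, and each of the 5 was called higher with dex at each time from 3 to 11 h. The 6 epithelial and lung-tumour markers were all detected, and their summed level was 5681 to 8125 CPM (counts scaled to a common library total) in EtOH and 7026 to 12660 CPM in dex libraries. Of 12 markers of other cell types, 11 had a row, with a summed level of 15.6 to 27.6 CPM in EtOH and 9.56 to 29.7 CPM in dex libraries. The defining T cell marker *CD3E* had 0 counts and the leukocyte marker *PTPRC* had 10 counts in the 24 libraries together. Others of the list were counted in every library, as *COL1A1* had 3545 counts in all (45 to 268 per library) and *CD68* 1019 (20 to 67). At 7 h, 3 of the 6 epithelial and lung-tumour markers were called higher (*KRT8*, *KRT18* and *CDH1*) and 2 lower (*EPCAM* and *AKR1B10*). Of all features, 13.4% were called higher and 12.4% lower at that time. Of 4 tested markers of other cells, *COL1A1* was called lower at 7 h (log2 fold change -1.03). The part of these shifts in the results below was not tested.

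E2F factors bind DNA, most of them together with a DP partner, at the promoters of genes needed for DNA replication and S phase entry. E2F1, E2F2 and E2F3 are known as activators that RB1 holds in check until cyclin-dependent kinases phosphorylate it, while E2F4 and E2F5 act mainly as repressors together with the pocket proteins RBL1 (p107) and RBL2 (p130). E2F6 represses without pocket proteins, as part of a Polycomb complex, and E2F7 and E2F8 are atypical members that bind DNA without a DP partner and repress E2F targets late in S phase. Several genes of the family are themselves known E2F targets.

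Promoter windows from RefSeq on GRCh38.p14, reaching from 250 bases before to 50 bases after a transcription start, were used for 8 of the 10 genes. These made 9 windows, since *E2F3* has 2 starts. No window of *E2F5* or *E2F8* was used, so the motif counts do not cover these genes. An E2F motif (TTTCGCGC, TTTGGCGC, TTTCCCGC or TTTGCCGC, on either strand) lay in the windows of 4 genes, *E2F1*, *E2F2*, *E2F3* and *RBL1*. Among all 35116 RefSeq windows of this length, 1164 (3.31%) held it, and 4.78% of the windows of tested genes did. The windows of *E2F1* and *RBL1* each held 2 matches, and those of *E2F4*, *E2F6*, *E2F7* and *RB1* held none. The *RB1* window lies 172724 bases inside the gene, at an alternative start, and so does not describe its main promoter. The CCAAT box, which NF-Y binds, was found 3 times in the *E2F1* window, 4 times in that of *E2F3* and 4 times in that of *E2F7*, and 34.6% of all windows held at least 1. The 250 bases before the start are shown for the 4 genes that fell most at 5 h among those with a window, and for *E2F3* as the activator that was not called at 5 h. Capitals mark E2F motif matches in the first 4 lines and CCAAT boxes (on the reverse strand) in the last line. Each line reads 5′ to 3′ along the strand of its gene, and a match describes letters only, not a bound site.
E2F1 (chr20:33686386-33686635, minus strand): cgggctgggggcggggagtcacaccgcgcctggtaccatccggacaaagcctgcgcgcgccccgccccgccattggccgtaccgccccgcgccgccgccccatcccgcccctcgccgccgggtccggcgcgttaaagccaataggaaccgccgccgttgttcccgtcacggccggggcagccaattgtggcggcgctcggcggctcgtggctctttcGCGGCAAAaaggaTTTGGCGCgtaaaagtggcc
E2F2 (chr1:23531234-23531483, minus strand): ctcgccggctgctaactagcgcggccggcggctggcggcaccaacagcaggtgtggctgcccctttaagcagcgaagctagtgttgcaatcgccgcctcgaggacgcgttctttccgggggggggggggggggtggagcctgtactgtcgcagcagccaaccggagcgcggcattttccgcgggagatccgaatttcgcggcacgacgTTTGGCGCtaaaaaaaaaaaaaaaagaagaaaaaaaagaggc
E2F3 (chr6:20401629-20401878, plus strand): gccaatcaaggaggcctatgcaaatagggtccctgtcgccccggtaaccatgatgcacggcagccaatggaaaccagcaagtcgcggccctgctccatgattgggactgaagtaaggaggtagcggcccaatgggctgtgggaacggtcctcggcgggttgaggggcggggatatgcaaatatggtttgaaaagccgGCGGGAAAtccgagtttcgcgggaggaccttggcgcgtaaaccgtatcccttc
RBL1 (chr20:37095998-37096247, minus strand): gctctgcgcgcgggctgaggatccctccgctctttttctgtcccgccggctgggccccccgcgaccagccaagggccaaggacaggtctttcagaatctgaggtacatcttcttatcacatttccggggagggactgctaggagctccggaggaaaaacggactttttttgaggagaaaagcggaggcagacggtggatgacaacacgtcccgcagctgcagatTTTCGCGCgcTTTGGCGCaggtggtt
E2F7 (chr12:77065570-77065819, minus strand): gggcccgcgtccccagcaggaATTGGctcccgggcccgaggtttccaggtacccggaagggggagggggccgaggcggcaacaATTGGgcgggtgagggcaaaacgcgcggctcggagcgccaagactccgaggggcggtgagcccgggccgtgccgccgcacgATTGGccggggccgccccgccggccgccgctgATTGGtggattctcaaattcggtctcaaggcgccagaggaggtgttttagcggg

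Counted from the first transcribed base as 0, the E2F matches of *E2F1* began at -33 and -20, those of *RBL1* at -26 and -16, that of *E2F2* at -42 and that of *E2F3* at -53. The cell-cycle homology region (CHR, TTTGAA or TTCGAA on either strand) matched in the first *E2F3* window alone, against 16.4% of all windows. A GR hexamer (AGAACA on either strand) matched in the *RB1* window alone, against 14.8% of all windows.

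**Figure D1:**
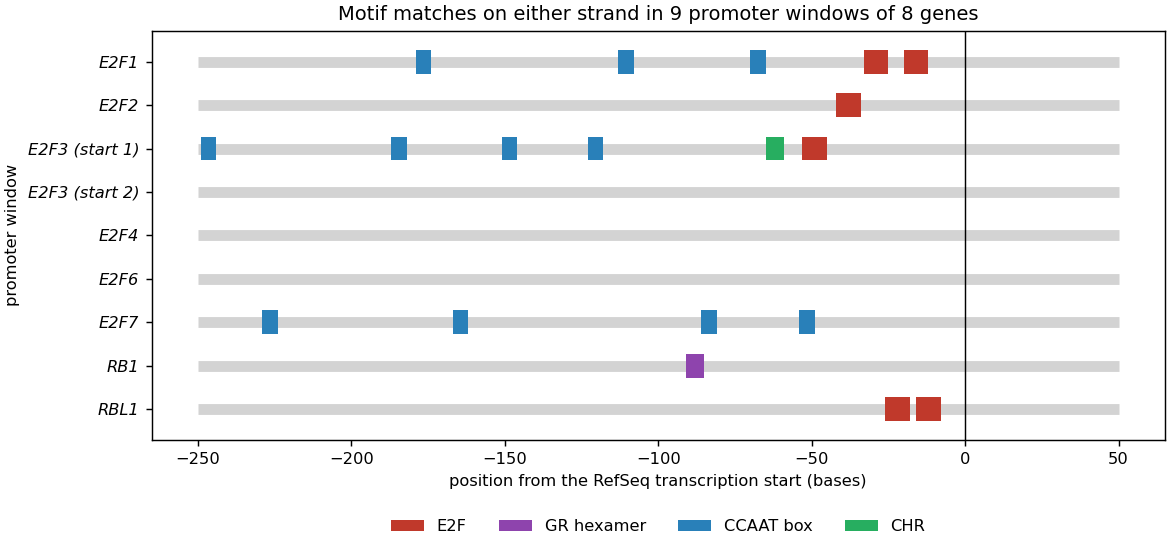
Motif matches on either strand in 9 promoter windows of 8 genes, plotted by position from the RefSeq transcription start in bases (vertical line at 0), with 1 grey bar per window. E2F matches (red) begin between -53 and -16 in the windows of *E2F1*, *E2F2*, *RBL1* and the first start of *E2F3*, and *E2F7* shows 4 CCAAT boxes (blue).

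Levels between genes were compared after division by transcript length, in TPM, which scales a library's length-divided counts to a common total. Over the 12 EtOH libraries the medians were 92.3 TPM for *E2F4* (range 78.2 to 107), 61.1 for *RB1* (42.7 to 66.1), 49.7 for *E2F5*, 44.9 for *RBL1*, 43.2 for *E2F1* and 37.2 TPM for *E2F6*. The lower part of the order was *E2F7* at 29.1, *E2F3* at 20.8, *E2F8* at 17.8 and *E2F2* at 5.34 TPM. In TPM the ranges of *E2F4* and *RB1*, of *E2F6* and *E2F7*, and of *E2F8* and *E2F2* did not overlap, while each other pair of neighbours overlapped. The place of *E2F4* depends on how length is taken, since 42.4% of its counts lie on 4 shorter transcripts. With all counts of a gene divided by the length of its most counted transcript, an alternative chosen after the data were seen, *RB1* (25.8 CPM per kb) and *E2F4* (25.5) had nearly the same median and overlapping ranges. *E2F1* (22.6) and *E2F5* (22.5) overlapped both of them on this scale, and the median of *RBL1* (13.4) was below that of *E2F6* (15.4), with overlapping ranges. On both scales *E2F2* was lowest and its range did not overlap that of *E2F8*, the next above it. The 12 dex libraries spread more widely for the genes that fell, as *E2F7* ran from 6.32 to 26.9 TPM and *E2F1* from 15.7 to 48.2 TPM. The split of reads between the 2 most counted transcripts of *E2F3*, *E2F5*, *E2F6*, *E2F7*, *E2F8* and *RB1* varied between libraries by no more than binomial counting error would give (chi-square per degree of freedom 0.506 to 1.2), and it varied more for *E2F4* (2.46) and *RBL1* (1.97). How reads matching several transcripts were placed is not given, so isoforms such as E2F3a and E2F3b were not compared.

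**Figure D2:**
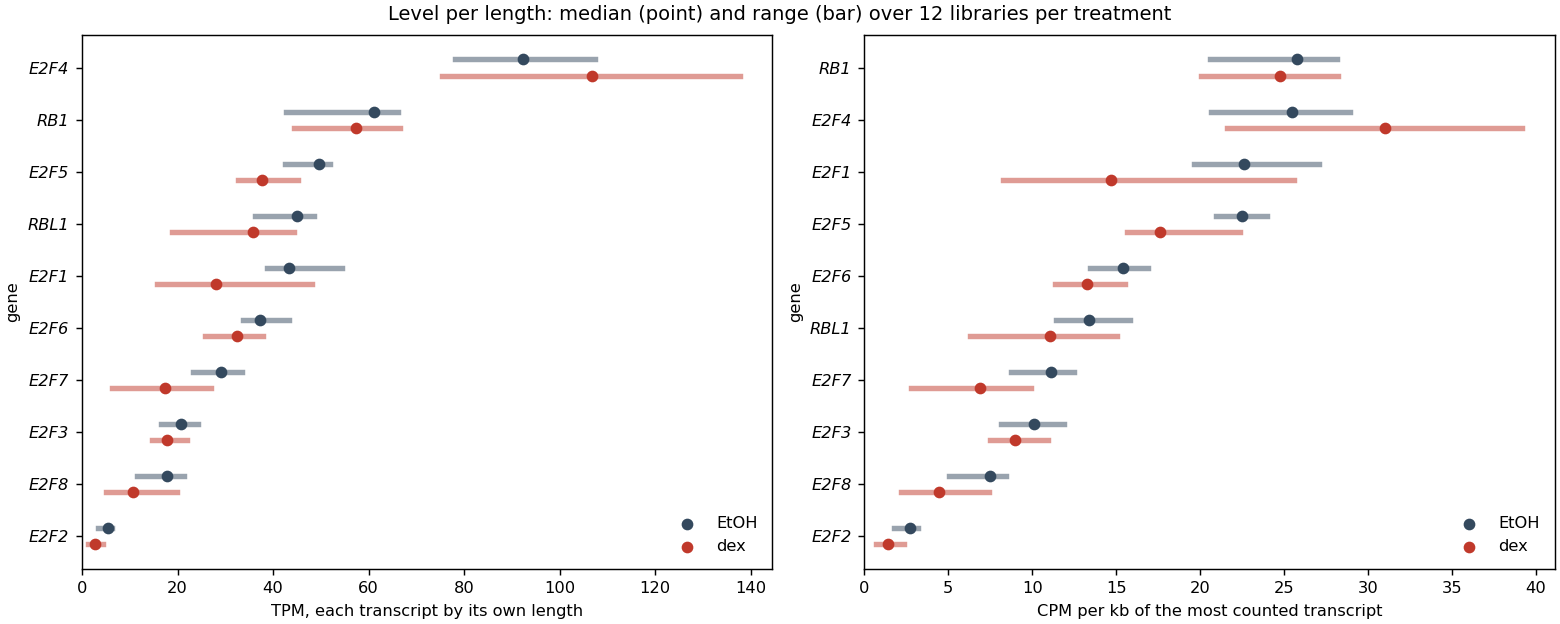
Level per length of each gene as the median (point) and range (bar) over 12 EtOH libraries (dark) and 12 dex libraries (red), all times together, in TPM with each transcript divided by its own length (left) and in CPM per kb of the most counted transcript (right). In EtOH *E2F4* lies above *RB1* on the left (92.3 against 61.1 TPM) and level with it on the right (25.5 against 25.8 CPM per kb), and *E2F2* is lowest in both panels.

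The comparison of dex with EtOH at each time asked which of these genes respond and when. A gene was called where edgeR's quasi-likelihood test gave a Benjamini-Hochberg adjusted p of at most 0.1 over the 19897 features tested. At 1 h none of the 10 genes was called by edgeR or by DESeq2, 2 had an unadjusted p below 0.05 in edgeR (*E2F2* and *E2F5*), and 0.824% of all features were called. At 3 h, 2 genes were called lower (*E2F3* and *E2F5*), against 5.02% of all features called lower. At 5 h, 6 genes were called lower, against 11.6% of all features, and none higher, against 11.4%. At 7 h, 7 genes were called lower and 1 higher, against 12.4% and 13.4% of all features. At 9 h, 4 genes were called lower (8.78% of all features), and at 11 h 1 was called lower and 1 higher (3.29% and 5.39%). The spread between replicate libraries, as edgeR's common coefficient of variation, ran from 6.48% at 7 h to 12.7% at 11 h. Counts of calls at different times therefore rest on unlike spreads. The median log2 fold change of the 10 genes was -0.11 at 1 and 3 h, -0.65 at 5 h, -0.61 at 7 h, -0.27 at 9 h and -0.29 at 11 h, while the median of all features stayed between -0.02 and 0.01. Both dex libraries lay below both EtOH libraries for 4 of the 10 genes at 1 h (18.4% of all features), 5 at 3 h (23.8%), 7 at 5 h (27.2%), 9 at 7 h (28.2%), 6 at 9 h (28.0%) and 7 at 11 h (22.4%). *E2F1*, *E2F2*, *E2F7*, *E2F8* and *RBL1* were called lower at both 5 and 7 h, against 7.64% of all features, and kept these calls under each of 13 alternative settings or left-out libraries.

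**Figure D3:**
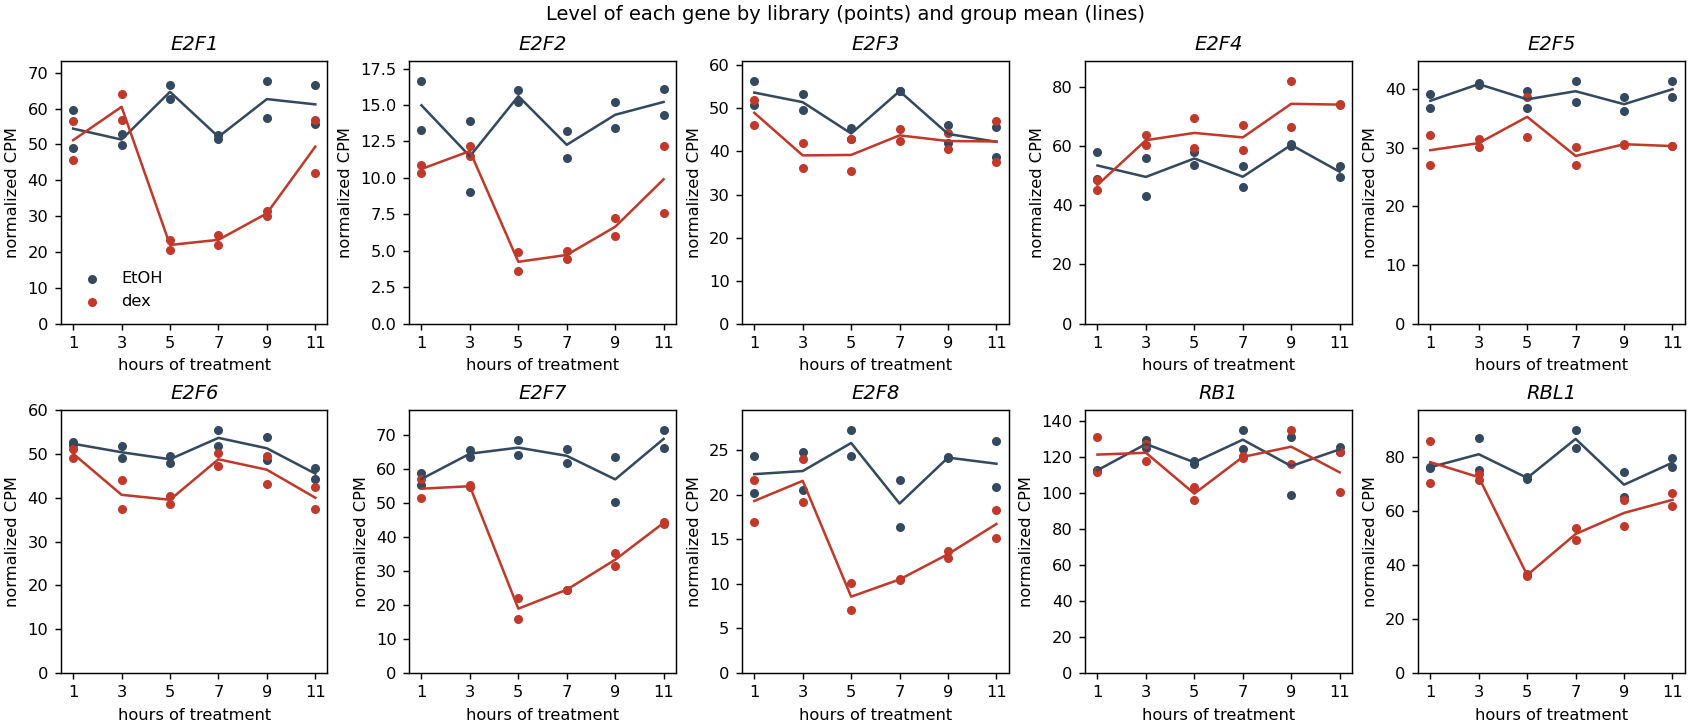
Normalized CPM of each gene (vertical axes, starting at 0) against hours of treatment, with 1 point per library and lines through the means of 2 libraries, for EtOH (dark) and dex (red). The dex points of *E2F1*, *E2F2*, *E2F7*, *E2F8* and *RBL1* drop between 3 and 5 h and lie below the EtOH points at 5, 7 and 9 h, and those of *E2F4* lie above them from 3 h on.

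*E2F1* (chromosome 20, 33675683 to 33686404, minus strand, GENCODE release 29 on GRCh38, as for all genes below), the best known activator and a target of RB1, fell sharply between 3 and 5 h. At 3 h its normalized level was 64.0 and 56.9 CPM in the dex libraries and 49.8 and 52.9 CPM in the EtOH libraries, a difference that did not pass (log2 fold change 0.23 ± 0.11 SE, adjusted p = 0.233, edgeR). At 5 h it was 20.6 and 23.3 CPM with dex against 62.8 and 66.5 CPM with EtOH. The dex libraries thus moved from above both EtOH libraries at 3 h to well below them at 5 h, where *E2F1* stood at 33.9% of its EtOH level (log2 fold change -1.56 ± 0.13, adjusted p = 1.32e-13, edgeR). It was still lower at 7 h, at 24.7 and 22.0 CPM against 51.5 and 52.7 CPM (log2 fold change -1.15 ± 0.11), and at 9 h, at 31.5 and 29.99 CPM against 67.8 and 57.5 CPM (-1.03 ± 0.13). At 11 h the libraries overlapped, with 41.9 and 56.9 CPM against 66.5 and 55.8 CPM, and the gene was not called (adjusted p = 0.427, edgeR). Without the second dex library of 11 h, the higher of the pair, it was called lower there (log2 fold change -0.54, adjusted p = 0.000193, edgeR).

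*E2F2* (chromosome 1, 23506430 to 23531220, minus strand), another activator and the least abundant member, had the lowest fold change of the 10 genes at 5 h, within its SE of that of *E2F7*. At 5 h it had 4.91 and 3.58 CPM with dex against 16 and 15.2 CPM with EtOH, or 27.2% of the EtOH level (log2 fold change -1.87 ± 0.21, adjusted p = 1.45e-09, edgeR). At 7 h it had 4.41 and 5.02 CPM against 11.4 and 13.2 CPM (log2 fold change -1.39 ± 0.20), and at 9 h 6.02 and 7.27 CPM against 15.2 and 13.5 CPM (-1.09 ± 0.20). Both dex libraries lay below both EtOH libraries at each of these times. At 1 h they also did so, at 10.3 and 10.9 CPM against 13.3 and 16.7 CPM, without passing the test (adjusted p = 0.534, edgeR), and at 3 h they overlapped. At 11 h the level was 7.62 and 12.2 CPM against 16.1 and 14.3 CPM. This was also without a call in the per-time fit (log2 fold change -0.62 ± 0.24, adjusted p = 0.183, edgeR). Without the second dex library the log2 fold change was -0.99. *E2F2* was called lower at 11 h in 1 fit over 24 libraries (adjusted p = 0.0482, edgeR). It was also called there without the low-count filter (0.0738, edgeR) and with the replicate number as a block (0.0643, edgeR).

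*E2F3* (chromosome 6, 20401906 to 20493715, plus strand), the remaining activator, changed little. It was called lower at 3 h, at 36.2 and 41.9 CPM with dex against 53.3 and 49.7 CPM with EtOH (log2 fold change -0.39 ± 0.12, adjusted p = 0.0323, edgeR). At 7 h it was again called lower, at 42.4 and 45.1 CPM against 54.0 and 54.0 CPM (log2 fold change -0.31 ± 0.10, adjusted p = 0.0234, edgeR). At 5 h, when *E2F1* and *E2F2* were lowest, the *E2F3* libraries overlapped, at 35.4 and 43.0 CPM against 45.4 and 42.9 CPM (log2 fold change -0.17 ± 0.13). Both calls were lost in DESeq2 (adjusted p = 0.121 and 0.154). The call at 3 h was also lost without the first dex library (adjusted p = 0.332, edgeR) and without the first EtOH library (adjusted p = 0.236, edgeR), and that at 7 h without either dex library and in 1 fit over 24 libraries (adjusted p = 0.118, edgeR). With transcripts tested singly the call at 3 h was lost (adjusted p = 0.127, edgeR).

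*E2F4* (chromosome 16, 67192169 to 67198918, plus strand), a repressor that works with RBL1 and RBL2, moved in the opposite direction. Its dex libraries lay above both EtOH libraries at 3, 5, 7, 9 and 11 h, as did those of 26.8%, 27.2%, 28.8%, 25.9% and 22.7% of all features, and below both at 1 h. At 7 h it had 67.3 and 58.6 CPM with dex against 46.1 and 53.2 CPM with EtOH (log2 fold change 0.35 ± 0.10, adjusted p = 0.0109, edgeR). At 11 h it had 74.2 and 73.8 CPM against 53.2 and 49.5 CPM, or 144% of the EtOH level (log2 fold change 0.53 ± 0.14, adjusted p = 0.0423, edgeR). The gene was called higher than in EtOH at these times. The values at 3 h (0.32 ± 0.12, adjusted p = 0.104, edgeR), 5 h (0.21 ± 0.12) and 9 h (0.29 ± 0.13) did not pass. The 3 h value passed without the low-count filter (0.0932, edgeR), with at least 10 counts in every library (0.0882) and with transcripts tested singly (0.0478). Without the second EtOH library of 3 h the log2 fold change was 0.52. The 9 h value passed with the replicate number as a block (0.0535, edgeR). The call at 7 h was lost without the first dex library (adjusted p = 0.338, edgeR) and in DESeq2 (adjusted p = 0.104). The call at 11 h was lost without either EtOH library (adjusted p = 0.423 and 0.651, edgeR), although the fold change stayed at 0.58 and 0.48 on the log2 scale, and with transcripts tested singly (adjusted p = 0.349, edgeR).

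*E2F5*, the other repressor of this kind, was called lower at 3 and 7 h. It had 31.5 and 30.1 CPM with dex against 40.7 and 41.0 CPM with EtOH at 3 h (log2 fold change -0.41 ± 0.12, adjusted p = 0.0289, edgeR), and 30.1 and 27.1 CPM against 41.5 and 37.8 CPM at 7 h (-0.46 ± 0.11, adjusted p = 0.00176, edgeR). At 1, 9 and 11 h both dex libraries were again below both EtOH libraries, with log2 fold changes of -0.35, -0.29 and -0.40 that did not pass, while at 5 h the libraries overlapped (-0.12 ± 0.13). The value at 11 h passed without either dex library (adjusted p = 0.0181 and 0.0254, edgeR) and in 1 fit over 24 libraries (0.024). That at 9 h passed without the second EtOH library (0.0637) and with total counts (0.0904), and that at 1 h with the replicate number as a block (0.0812). The call at 3 h was lost in DESeq2 (adjusted p = 0.117) and without the second dex library or either EtOH library (adjusted p = 0.104 to 0.124, edgeR), and that at 7 h without the second dex library (adjusted p = 0.104, edgeR). With transcripts tested singly both calls were lost (adjusted p = 0.261 and 0.325, edgeR). A test of the dex effect across the 6 times did not pass for *E2F5* (adjusted p = 0.634, edgeR).

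*E2F6* (chromosome 2, 11444375 to 11466177, minus strand), the repressor that lacks pocket protein binding, was called lower at 5 h, with nearly the same fold change at 3 h. The 3 h level was 37.4 and 44.0 CPM with dex against 51.8 and 49.0 CPM with EtOH (log2 fold change -0.31 ± 0.12, adjusted p = 0.117, edgeR), which passed in 5 of the 13 alternatives. At 5 h the level was 38.6 and 40.5 CPM with dex against 48.0 and 49.7 CPM with EtOH (log2 fold change -0.30 ± 0.12, adjusted p = 0.0746, edgeR). This call did not hold in DESeq2 (adjusted p = 0.252) or without any 1 of the 4 libraries (adjusted p = 0.133 to 0.261, edgeR). Of its 10 listed partners in the PRC1.6 Polycomb complex, 2 were called higher (*MAX* and *MGA*) and 1 lower (*PCGF6*) at 5 h, and 2 higher (*MAX* and *RYBP*) and 3 lower (*PCGF6*, *RNF2* and *CBX3*) at 7 h, beside 11.4% of all features higher and 11.6% lower at 5 h, and 13.4% and 12.4% at 7 h. *PCGF6*, a RING finger subunit, stood at 67.2% of EtOH at 7 h (log2 fold change -0.58), the E-box factor *MAX* at 134% (0.42) and the ubiquitin ligase *RNF2* at 81.0% (-0.31). The median over these 10 partners was 0.06 at 7 h, beside 0.00055 over all features tested.

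*E2F7* (chromosome 12, 77021247 to 77065580, minus strand), an atypical repressor, fell almost as far as *E2F2* and was called at more times than any other member. At 3 h it had 54.6 and 55.1 CPM with dex against 63.4 and 65.5 CPM with EtOH, which did not pass (adjusted p = 0.216, edgeR). At 5 h it had 21.9 and 15.8 CPM against 64.1 and 68.4 CPM, or 28.5% of the EtOH level (log2 fold change -1.81 ± 0.14, adjusted p = 1.91e-14, edgeR). The dex libraries were thus far below both EtOH libraries, and they stayed below them at each later time. The pairs were 24.4 and 24.4 CPM against 61.8 and 65.9 CPM at 7 h (log2 fold change -1.39 ± 0.11), 35.1 and 31.4 CPM against 63.5 and 50.3 CPM at 9 h (-0.78 ± 0.14), and 44.4 and 43.8 CPM against 71.5 and 66.1 CPM at 11 h (-0.64 ± 0.15, adjusted p = 0.0149, edgeR). The call at 9 h was lost without the second dex library (adjusted p = 0.107, edgeR), and that at 11 h without the first or the second EtOH library (adjusted p = 0.378 and 0.174, edgeR).

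*E2F8* (chromosome 11, 19224063 to 19241620, minus strand), the other atypical repressor, followed the same course at a lower level. At 3 h the libraries overlapped, at 24 and 19.1 CPM with dex and 24.7 and 20.5 CPM with EtOH. At 5 h it had 10.0 and 7.05 CPM against 27.3 and 24.3 CPM, or 33.1% of the EtOH level (log2 fold change -1.59 ± 0.17, adjusted p = 6.12e-10, edgeR). At 7 h it had 10.4 and 10.6 CPM against 16.4 and 21.6 CPM (-0.86 ± 0.16), and at 9 h 12.9 and 13.7 CPM against 24.1 and 24.2 CPM (-0.85 ± 0.15). At 11 h the dex libraries, at 15.1 and 18.3 CPM, were still below the EtOH libraries, at 26.0 and 20.9 CPM. *E2F8* was not called there in the per-time fit (log2 fold change -0.49 ± 0.20, adjusted p = 0.211, edgeR). In 1 fit over 24 libraries it was called lower at 11 h (-0.49, adjusted p = 0.0753, edgeR). Without the second dex library it was called there (log2 fold change -0.63, adjusted p = 0.0023, edgeR).

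*RBL1* (chromosome 20, 36996349 to 37095995, minus strand), which encodes the pocket protein p107, fell with the E2F genes by a smaller factor. At 5 h it had 35.8 and 36.6 CPM with dex against 72.4 and 71.9 CPM with EtOH, or 50.1% of the EtOH level (log2 fold change -0.996 ± 0.12, adjusted p = 4.03e-09, edgeR). At 7 h it had 49.2 and 53.6 CPM against 90.0 and 83.2 CPM (-0.76 ± 0.09, adjusted p = 6.24e-08, edgeR). The dex libraries remained below both EtOH libraries at 9 and 11 h, with log2 fold changes of -0.24 and -0.28 that did not pass. Without the second EtOH library of 9 h, the 9 h value was called (-0.34, adjusted p = 0.02, edgeR), and without the first dex library of 11 h the 11 h value was called (-0.34, adjusted p = 0.0177, edgeR).

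*RB1* (chromosome 13, 48303726 to 48599436, plus strand), the retinoblastoma protein that restrains the activator E2Fs, was not called at any time. Its level over the 6 times was 96.1 to 135 CPM in dex libraries and 98.7 to 135 CPM in EtOH libraries. The fold change nearest to a call was at 5 h, at 103 and 96.1 CPM with dex against 116 and 118 CPM with EtOH. The log2 fold change there was -0.23 ± 0.10 (adjusted p = 0.126, edgeR). With total counts without TMM this value was called lower (-0.27, adjusted p = 0.0651, edgeR). Leaving out the first EtOH library of 9 h gave a call in the higher direction (0.34, adjusted p = 0.00519, edgeR), and leaving out the first dex library of 11 h gave one in the lower direction (-0.31, adjusted p = 0.0219, edgeR). The pocket protein gene *RBL2*, listed beside the members, was not called at any time either, with log2 fold changes from -0.12 to 0.15.

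**Figure D4:**
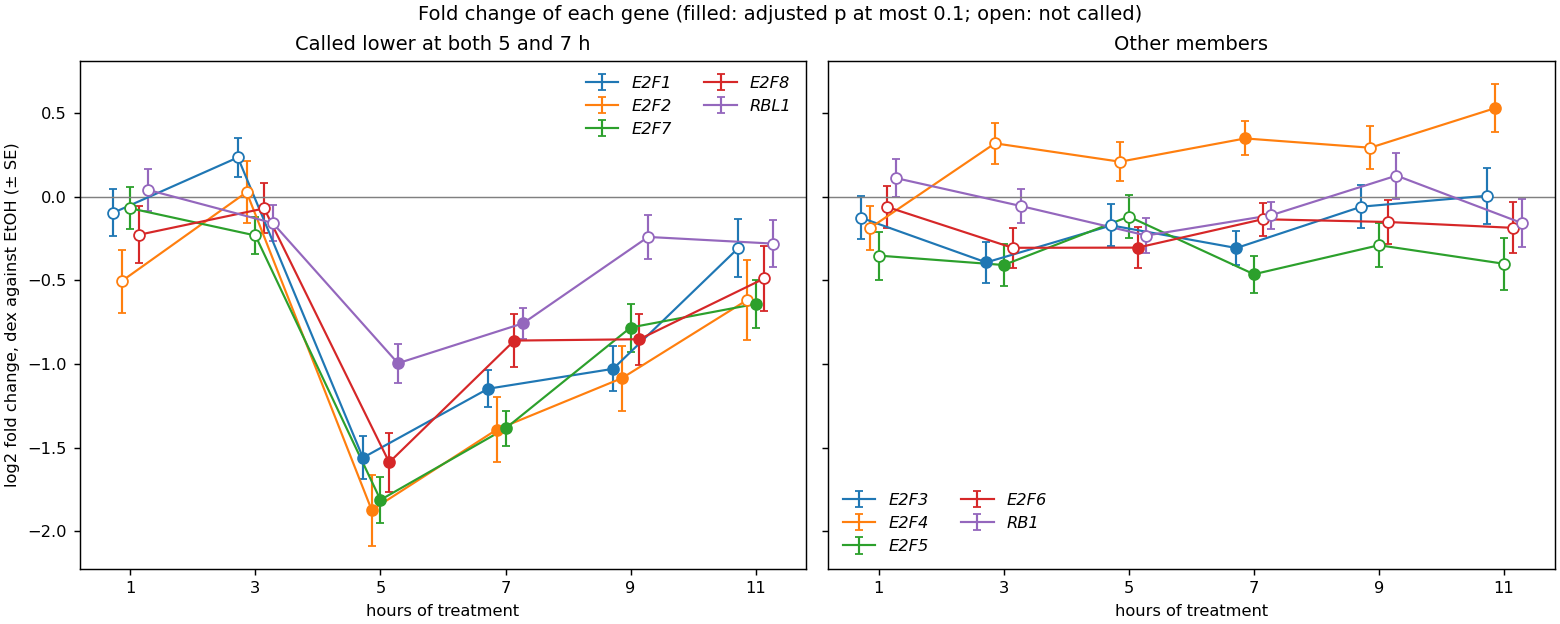
Log2 fold change of dex against EtOH (vertical axis, bars show the SE of the fit) by hours of treatment for 10 genes, split into the 5 called lower at both 5 and 7 h (left) and the other 5 (right), with filled points for adjusted p of at most 0.1. The left panel falls to between -1.87 and -0.996 at 5 h and returns to between -0.64 and -0.28 at 11 h, and in the right panel *E2F4* lies above 0 from 3 h on.

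Whether the dex effect changed with time was tested in 1 fit over the 24 libraries. The effect differed between the 6 times for 5 of the 10 genes, against 13.8% of all features, with adjusted p = 5.92e-07 for *E2F1*, 0.000848 for *E2F2*, 1.82e-07 for *E2F7*, 0.00131 for *E2F8* and 0.000167 for *RBL1* (edgeR). The same 5 genes passed the test of the effect at 5 h against that at 3 h. This test was added after the levels had been seen. The 5 genes were called lower in it, against 3.82% of all features. These differences were -1.79 ± 0.20 for *E2F1*, -1.90 ± 0.31 for *E2F2*, -1.58 ± 0.18 for *E2F7*, -1.52 ± 0.26 for *E2F8* and -0.84 ± 0.16 for *RBL1* on the log2 scale. The return was tested as the effect at 11 h minus that at 5 h, which shares the 5 h libraries with the preceding test. The 5 genes were called higher in this test, against 1.75% of all features. Their differences were 1.25 ± 0.20 for *E2F1*, 1.25 ± 0.31 for *E2F2*, 1.17 ± 0.18 for *E2F7*, 1.10 ± 0.26 for *E2F8* and 0.71 ± 0.16 for *RBL1*. The difference was also positive, without a call, for *E2F3*, *E2F4*, *E2F6* and *RB1*, and negative for *E2F5*. *E2F4* (adjusted p = 0.111, edgeR), *E2F3*, *E2F5*, *E2F6* and *RB1* did not pass the test across times. In EtOH alone none of the 10 genes was called over time by edgeR, 1 had an unadjusted p below 0.05 (*E2F3*), and 0.0704% of all features were called. With so few calls in all, this does not show that their EtOH levels stayed constant.

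Of the DP partners, with which most E2Fs bind DNA, *TFDP1* was called lower at 5 h alone, at 75.0 and 75.1 CPM with dex against 101 and 101 CPM with EtOH (log2 fold change -0.43 ± 0.11, adjusted p = 0.0022, edgeR). *TFDP2* was not called at any time, and *TFDP3*, with 9 counts in all libraries together, was not tested. The list of the MuvB complex, B-MYB and FOXM1, which drive or repress late cell-cycle genes, had 7 genes. Of these, *FOXM1*, *LIN9*, *LIN52* and *MYBL2* were called lower at 5 and at 7 h. That makes 4 at each time, beside 11.6% and 12.4% of all features called lower, with list medians of -0.51 and -0.35. At 7 h the MuvB subunit *LIN9* stood at 63.5% of EtOH (log2 fold change -0.67), the factor *MYBL2* at 69.1% (-0.53) and the subunit *LIN52* at 69.1% (-0.52).

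A list of cyclins and kinases that phosphorylate pocket proteins, with the phosphatase *CDC25A* that activates such kinases, had 6 of 9 tested genes called lower at 5 h (11.6% of all features), 7 at 7 h (12.4%), 4 at 9 h (8.78%) (*CCND3*, *CDC25A*, *CDK2* and *CDK6*) and 2 at 11 h (3.29%, *CCND3* and *CDK6*). At 7 h *CCNE2*, a cyclin of the G1/S step, stood at 42.2% of EtOH (log2 fold change -1.27), *CDC25A* at 49.9% (-1.02) and *CCNE1* at 56.1% (-0.82), and the median over the list was -0.74. These 3 genes also stand in the list of E2F targets. *CCND1*, the D-type cyclin with the most counts, was called higher at each time from 3 to 11 h and had 320 and 321 CPM with dex against 216 and 227 CPM with EtOH at 7 h (0.53). Of the 7 listed inhibitors of these kinases, 5 could be tested. At 7 h 3 were called higher and none lower, beside 13.4% and 12.4% of all features. *CDKN1A* (p21) had 174 and 173 CPM against 56.7 and 60.9 CPM (1.56), *CDKN1B* (p27) had 63.8 and 60.3 CPM against 47.9 and 49.9 CPM (0.35), and *CDKN1C* (p57) had 12.4 and 12 CPM against 0.197 and 0 CPM. *CDKN1A* and *CDKN1C* were called higher at each time from 3 h on. *CDKN1B* was called at 7 h alone, and at the other times its log2 fold change ran from -0.46 (1 h) to 0.29 (3 h). *CDKN2A*, the gene of p16, had 0 counts in the 24 libraries.

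Most of the listed targets of the E2Fs were called lower from 5 to 9 h. Of 38 listed replication and S phase genes, 37 were tested. Called lower were 36 at 5 h (97.3%, against 11.6% of all features) and 36 at 7 h (97.3%, against 12.4%). At 9 h 26 were called lower (70.3%, against 8.78%), and at 11 h 2 were (5.4%, against 3.29%). None was called higher at these times. The wider spread between libraries at 11 h, given above, enters the count there. At 3 h 3 were called higher (*GINS1*, *MCM2* and *POLA1*), beside 1561 of the 19897 features tested. At that time 1 was called lower (*CHEK1*, 2.7% of the list), beside 5.02% of all features. Both counts are near or below the share of all features. At 1 h none was called by edgeR (0.824% of all features), with 2 at an unadjusted p below 0.05. The median over the 37 genes was -0.97 at 5 h, -0.62 at 7 h, -0.55 at 9 h and -0.17 at 11 h, beside medians of 0.01, 0.00055, -0.02 and 0.01 over all features tested. At 7 h *CDC6*, a replication licensing factor, had 46.0 and 49.0 CPM with dex against 125 and 123 CPM with EtOH (log2 fold change -1.39). *MCM10*, a replication initiation factor, had 34.1 and 35.2 CPM against 77.4 and 80.3 CPM (-1.19). Both were also the 2 genes still called lower at 11 h. The E2F motif spelled out above lay in 22 of 46 promoter windows of this list (47.8%), against 4.78% of the windows of all tested genes. Since the list was drawn up as E2F targets, this share describes the list and not the response to dex.

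**Figure D5:**
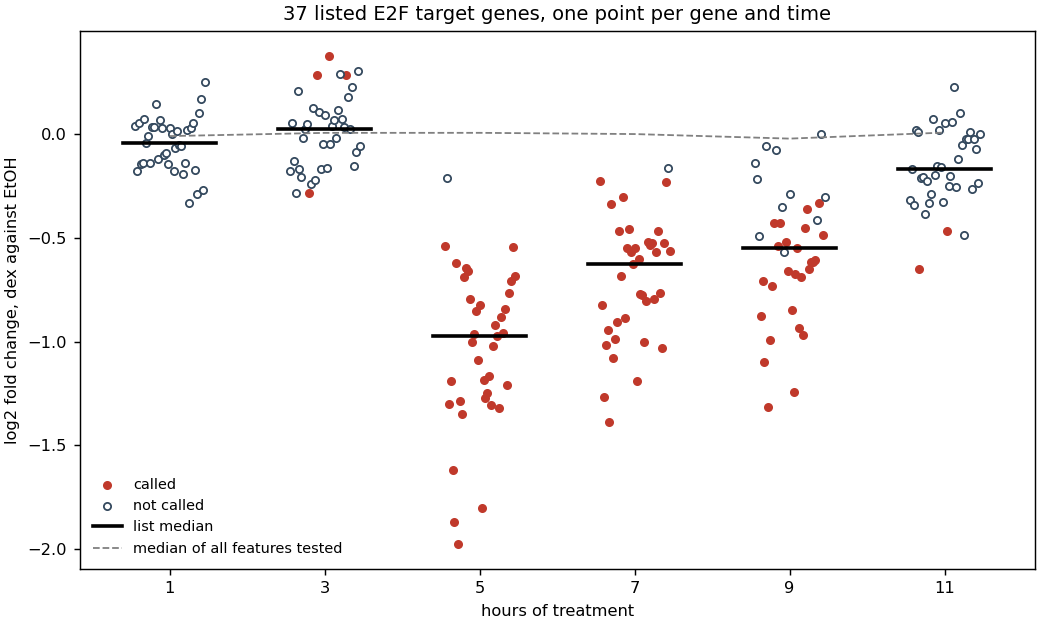
Log2 fold change of dex against EtOH (vertical axis) of 37 listed E2F target genes at each time, 1 point per gene, red where called and open where not, with the list median as a black bar and the median of all features tested as a dashed line. The points sit around 0 at 1 and 3 h, fall to a median of -0.97 at 5 h and return to -0.17 at 11 h.

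The genes whose log2 CPM ran most alike over the 24 libraries were listed for the 2 members with the largest mean absolute fold change, among 12756 genes with a mean of at least 5 CPM. For *E2F2* these were *E2F1* (Pearson r = 0.950), *FEN1* (0.945), *RHBDL3* (0.942), *LMNB1* (0.942) and *E2F8* (0.941). For *E2F7* they included *MCM10* (0.979), *DTL* (0.977), *FIGNL1* (0.976) and *WDR76* (0.975). The libraries behind each r are the same 12 dex and 12 EtOH libraries, so a shared difference between treatments enters every value, and no test was made.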

How the data were processed

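The authors used Bowtie to align single-end poly-A reads to the transcripts of GENCODE (hg19 per the labels), counted reads per transcript with samtools and deposited these raw counts. How reads matching several transcripts were placed is not given in the sources used here. The treatment text gives 1 h for every library, and the duration tag (1 to 11 h) was used. The methods state triplicates, while the labels give 2 replicates. The table held 119207 transcript rows, of which 110261 were joined to genes by GENCODE release 29 identifiers without version (94.1% of counts), and counts were summed per gene. The row named * held 0 counts.

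Filtered by filterByExpr, 19897 features were scaled by TMM and tested per time with edgeR 4.0.16 (quasi-likelihood, robust, R 4.3.3) at a Benjamini-Hochberg adjusted p of at most 0.1. Tests across times used 1 fit over 24 libraries. Each SE is the absolute log2 fold change over the root of its F statistic. CPM use the TMM library sizes. At the depths given, *E2F2* rests on as few as 32 counts. With 200 changed genes simulated at 5 h among 19897, 90% of 2-fold and 99% of 4-fold changes were recovered, and 16% of 225 calls were false. The changed genes were drawn above a minimum mean count, with the spread of the 5 h libraries. Recovery at lower counts or at the other times was not simulated. DESeq2 1.42.0 and the other alternatives are described in the closing section.

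The members, gene lists and motifs were chosen with earlier results of these data known. Named were all members and, from each pathway list, the 3 called genes with the largest change at the time with most member calls (7 h), and for the 2 members with the largest mean change the 5 genes most like them, of which 1 is not reported here. *CCND1*, *TFDP1*, *TFDP2*, *TFDP3*, *RBL2*, *CDKN2A*, the markers and the other genes named beside counts of 5 or fewer were named after their values were seen. Some listed genes (*UHRF1*, *PECAM1*) were not analysed here.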

Additional observations from a re-analysis of the deposited data

Results flagged for a closer look

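The dex effect of 5 genes differed between time points by tests of the difference itself, all from edgeR's quasi-likelihood test over 24 libraries with Benjamini-Hochberg adjustment. Over the 6 times the adjusted p was 5.92e-07 for *E2F1*, 0.000848 for *E2F2*, 1.82e-07 for *E2F7*, 0.00131 for *E2F8* and 0.000167 for *RBL1*. For the effect at 5 h minus that at 3 h, added after the levels had been seen, it was 1.73e-06 for *E2F1*, 0.000286 for *E2F2*, 2.13e-06 for *E2F7*, 0.000401 for *E2F8* and 0.00157 for *RBL1* in edgeR. For the effect at 11 h minus that at 5 h it was 0.000839 for *E2F1*, 0.0398 for *E2F2*, 0.000494 for *E2F7*, 0.0265 for *E2F8* and 0.0188 for *RBL1* in edgeR. The size was smallest for *RBL1* in both differences, and the cause of the return toward EtOH levels was not tested.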

How the results depend on the processing

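The calls of *E2F1*, *E2F2*, *E2F7*, *E2F8* and *RBL1* at 5 and 7 h held under all 13 alternatives, with log2 fold changes from -2.12 to -0.65. The members gave 22 calls over the 6 times, and the alternatives gave 17 (DESeq2) to 25 (replicate block, and total counts without TMM). Features called in all moved by over 1.5 times at 1 h without the low-count filter (302 against 164), in DESeq2 at 3 h (1324 against 2559), 5 h (2660 against 4585), 7 h (2727 against 5134) and 9 h (2032 against 3598), and at 11 h in 1 fit over 24 libraries (2971 against 1727). Leaving out 1 library gave 91 to 770 calls at 1 h, 1518 to 2993 at 3 h, 2662 to 5866 at 7 h, 1329 to 6107 at 9 h and 859 to 5845 at 11 h. Over EtOH times, 14 features were called, and 8 with DESeq2's size factors.

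The replicate numbers were not taken as pairs: the labels tie them to no shared culture or day, and deviations of same-numbered libraries correlated at -0.0588 to 0.135, above 0.1 at 1 and 9 h alone. With the number as a replicate block, 636 features were called at 1 h, 5276 at 9 h and 38 over EtOH times, and the members gained *E2F5* at 1 h (adjusted p = 0.0812), *E2F4* at 9 h (0.0535) and *E2F2* at 11 h (0.0643, edgeR).

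Of member values not called in the per-time fits, these changed sign. The log2 fold change of *E2F3* at 11 h was 0.0049, and it was -0.0015 with DESeq2's size factors, -0.044 with total counts, -0.00061 with the replicate block, -0.00099 in DESeq2 and -0.10 with transcripts tested singly. With total counts *E2F2* at 3 h was -0.00097 and *RBL1* at 1 h -0.0031, and with transcripts tested singly *E2F6* was 0.14 at 1 h and 0.014 at 9 h. Leaving out 1 library gave -0.25 to 0.054 for *E2F1* at 1 h, -0.23 to 0.38 for *E2F2* at 3 h, -0.13 to 0.0077 for *E2F3* at 9 h and -0.17 to 0.16 at 11 h, -0.27 to 0.015 for *E2F5* at 5 h, -0.24 to 0.087 for *E2F8* at 3 h, -0.012 to 0.22 for *RB1* at 1 h and -0.0697 to 0.34 at 9 h, and -0.11 to 0.17 for *RBL1* at 1 h.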
